A study of Mus musculus with 5 samples.

Results

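Mt1 and Mt2, the metallothionein genes with known broad expression, were followed in single cells of mouse gut organoids, cultures of epithelium that grow in a gel. They are 2 of the 18418 genes with a UMI in any of the 5 libraries. A UMI is a unique molecular identifier, so a UMI count is a count of the mRNA molecules that were captured. Mt1 and Mt2 are nuclear genes and are not related to the mitochondrial genome, whose genes share the abbreviation. They were chosen by their measured UMI counts in these libraries. Their levels, shares of cells and correlation are therefore given as a description, with no test.

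The 5 libraries were 1 plate each, sorted as single cells into 384 wells and read near the 3′ end of each transcript. One library (fetal) held WT organoids from fetal intestine. The other 4 held small intestinal organoids, 1 of them WT and 1 Lkb1 +/- (het). The last 2 were both Lkb1 -/- and are told apart in their titles by the words Bud and Cys, whose sense the labels do not give. Lkb1 is another name for Stk11, which encodes a protein kinase. The labels describe 1 medium for all groups, with Egf, R-spondin, Noggin, B27, N2 and N-acetylcysteine. They name no drug and do not say whether a line was 1 clone. Each group is 1 library, so nothing measures the spread between cultures. Every interval below is a 95% interval that covers counting error only.

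Metallothioneins are small proteins, about which it is known that their many cysteines bind zinc and copper. Transcription of Mt1 and Mt2 is switched on by zinc through the transcription factor MTF1, which binds metal response elements (MREs) near the start of each gene. Glucocorticoids, oxidants and inflammation are also known inducers. In the intestine the proteins are known as a store that holds zinc inside epithelial cells. Mt3 and Mt4 are the other family members and are best known from brain and from stratified epithelia.

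The 4 genes lie side by side on the plus strand of mouse chromosome 8, in genome build GRCm38. Mt1 (ENSMUSG00000031765) spans 94179082 to 94180327 and Mt2 (ENSMUSG00000031762) spans 94172664 to 94173568. A gap of 5513 bases separates the end of Mt2 from the start of Mt1, and Mt3 and Mt4 lie upstream of Mt2. The coding sequences of Mt1 and Mt2 are printed here because the values below rest on telling these related genes apart, and capitals mark the codons for cysteine. They were read from the GENCODE transcripts of the build.
Mt1: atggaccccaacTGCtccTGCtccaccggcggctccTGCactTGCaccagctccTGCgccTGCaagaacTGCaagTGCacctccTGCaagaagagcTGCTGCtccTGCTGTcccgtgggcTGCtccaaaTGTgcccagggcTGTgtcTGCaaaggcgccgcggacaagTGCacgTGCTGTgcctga
Mt2: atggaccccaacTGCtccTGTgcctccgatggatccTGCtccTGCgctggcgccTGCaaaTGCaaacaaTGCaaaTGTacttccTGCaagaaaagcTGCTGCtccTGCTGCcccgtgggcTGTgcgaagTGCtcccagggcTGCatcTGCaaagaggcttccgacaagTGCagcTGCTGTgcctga
Each coding sequence has 186 bases and 61 codons before the stop, 20 of them for cysteine, and all 20 cysteine positions are the same in Mt1 and Mt2. Of the 186 bases, 148 (79.6%) are identical. Over the whole spliced transcripts the longest stretch that Mt1 and Mt2 share is 20 bases. No run of 60 bases, the length of the longer sequenced read, occurs both in a transcript of Mt1 or Mt2 and in an annotated transcript of another gene.

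The MRE core was searched as TGCACNC or TGCGCNC on both strands. It can overlap other motifs, among them the core of hypoxia response elements, ACGTG or GCGTG. In the 250 bases before each RefSeq gene start, in the GRCm38 table of promoters, 21.4% of 32851 windows held at least 1 core and 5.17% held 2 or more. The Mt1 window held 1 core and the Mt2 window held 3. Read on to the start codon, 5 cores lay 124 to 245 bases before the Mt1 start codon, and 7 lay 119 to 453 bases before that of Mt2. The core nearest to the start codon and the one farthest from it are printed for each gene as the letters of the plus strand, with the core in capitals and 6 bases on each side, since elements of this kind are known to carry the zinc response. The farthest lie at chr8:94179060-94179078 (Mt1) and chr8:94172389-94172407 (Mt2), upstream of the first annotated transcript start. The nearest lie at chr8:94179181-94179199 (Mt1) and chr8:94172723-94172741 (Mt2), downstream of it.
Mt1, farthest: ccgctgTGCACACtggcgc
Mt1, nearest: acccttTGCGCCCggactc
Mt2, farthest: cgcctcTGCACCCggcccc
Mt2, nearest: agctttTGCGCTCgaccca
A match describes the letters only, and binding of MTF1 was not measured. The hypoxia core, which 38.6% of windows hold, occurred 2 times in the Mt1 window and 1 time in the Mt2 window. Further hypoxia cores lay between the window and the start codon. They were 163 and 173 bases before it in Mt1, and 62 to 210 bases before it in Mt2.

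Wells with at least 1000 UMIs from genes, spike-in RNAs left out, were kept as cells, which left 302 to 371 cells and 4035219 to 5865507 UMIs per library. All 384 well names recur in the 5 tables, since they name plate positions. The marker lists matched the labelled tissue in part. Mature enterocyte genes summed to 2108 to 7773 CPM (UMIs per 1000000 UMIs of the library) in WT, het and Bud, but to 502 CPM in Cys and 129.7 CPM in fetal. Genes of fetal and regenerating gut epithelium summed to 17593 CPM in fetal and 13339 CPM in Cys, against 540 to 1132 CPM in the other 3 libraries. Gastric genes summed to 5223 CPM in Cys and to at most 94.1 CPM elsewhere. Immune and mesenchymal lists stayed at or below 4.52 CPM in every library. Stk11 was at 16.0 CPM in fetal, 20.6 in WT, 14.1 in het, 11.7 in Bud and 9.03 in Cys, on at most 94 UMIs, and a 3′ tag does not read an edit elsewhere in the gene. The Cys library had 2 wells with over 100000 UMIs, the larger with 452137. Kcnq1ot1 made up over 2% of UMIs in 2 wells of fetal and in 22 to 60 wells of each other library.

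Mt1 was among the most abundant mRNAs of WT organoids and was far less abundant in fetal organoids. WT stood at 4572 CPM (4507–4639), het at 2655 (2607–2703) and Bud at 1875 (1834–1917), while Cys stood at 442 (423–461) and fetal at 236 (224–249). By level it ranked 7 among 14548 genes with a UMI in WT, 41 in het, 78 in Bud, 300 in Cys and 715 among 14752 in fetal. The 5 levels did not overlap within their counting intervals, so no neighbours in that order were equal within counting error.

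Mt2 kept the same order. WT stood at 3000 CPM (2947–3054), het at 1637 (1599–1675) and Bud at 1302 (1267–1337), while Cys stood at 192 (180–204) and fetal at 30.3 (26.1–35.1). It ranked 30 in WT, 85 in het, 107 in Bud, 860 in Cys and 5792 in fetal. Of all UMIs, Mt1 made up 0.457% in WT and 0.0236% in fetal. Each captured molecule gives 1 tag whatever its length, but the share of molecules captured was not measured for either gene. In UMIs, Mt1 was above Mt2 in every library.

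**Figure D1:**
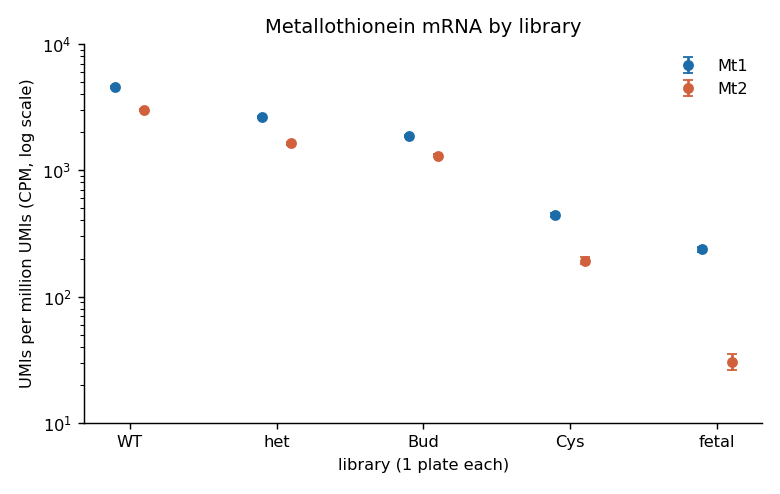
Level of Mt1 (blue) and Mt2 (orange) in each library, in CPM on a log axis, with exact Poisson 95% intervals that cover counting error only and 1 library per group. Both genes step down from WT through het, Bud and Cys to fetal, where Mt1 was at 236 CPM and Mt2 at 30.3 CPM.

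The other metallothioneins were nearly silent. Mt3 had 1 UMI in fetal, 1 in het and 0 in WT, Bud and Cys, which allows at most 0.743 CPM in WT, the shallowest library. Mt4 had 35 UMIs in WT (8.67 CPM), 15 in het (3.41 CPM), 24 in Bud (5.72 CPM) and 0 in Cys and fetal, which allows at most 0.602 and 0.511 CPM there. The libraries with some Mt4 were thus the 3 with the most Mt1 and Mt2. Mt4 came from 23 WT, 10 het and 18 Bud cells. In het, cells with an Mt4 UMI had 4614 CPM of Mt1 and the other cells 2540, and in Bud the values were 2935 and 1763. In WT they were 5056 and 4508. Cells with an Mt4 UMI were also deeper, with a median of 19654 to 25300.5 UMIs against 10633.5 to 11343 in the other cells of those libraries, and the part of depth in these gaps was not tested.

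Against WT, both genes were lower in each of the other libraries. A gene was called where its ratio of CPM was at least 1.5 either way and the exact conditional binomial 95% interval excluded 1, over genes with at least 10 UMIs in both libraries together. These 4 comparisons share the WT library, so the same WT value stands behind each of them. In het, Mt1 was 1.72-fold lower (1.68 to 1.76) and Mt2 1.83-fold lower (1.78 to 1.89), and 8.83% of all genes were called lower. In Bud, Mt1 was 2.44-fold lower (2.38 to 2.50) and Mt2 2.30-fold lower (2.23 to 2.38), with 8.67% of genes called lower. Both members were called in both comparisons. The rule that chose the genes used these contrasts, and nothing is read from the counts.

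The gap was wider in Cys and widest in fetal. In Cys, Mt1 was 10.4-fold lower (9.90 to 10.8) and Mt2 15.7-fold lower (14.7 to 16.7), and 22.0% of all genes were called lower. In fetal, Mt1 was 19.4-fold lower (18.4 to 20.5) and Mt2 98.9-fold lower (85.3 to 115), with 22.3% of genes called lower. With 10 CPM added to both levels, only 3 of 12534 genes had a smaller fetal to WT ratio than Mt2. For Cys to WT it was 35 of 11782 genes. Without that addition, genes with no UMI in fetal or Cys, such as Slc39a5, also have smaller ratios. Scaled to spike-in RNAs, Mt1 was 6.31-fold and Mt2 9.54-fold lower in Cys than in WT, and 11.4-fold and 58.3-fold lower in fetal. All genes shifted together by 0.71 (Cys) and 0.76 (fetal) on the log2 scale under that scaling, which was chosen after the data were seen.

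Between the Lkb1-edited libraries the steps differed in size. Bud was 1.42-fold lower than het for Mt1 (1.38 to 1.46) and 1.26-fold lower for Mt2 (1.21 to 1.30), and neither gene was called, while 11.7% of all genes were called lower. Against het, Cys was 6.01-fold lower for Mt1 and 8.55-fold lower for Mt2, where 21.3% of genes were called lower. Against Bud, the library of the same labelled genotype, Cys was 4.25-fold lower for Mt1 (4.05 to 4.45) and 6.80-fold lower for Mt2 (6.34 to 7.29), where 19.5% of genes were called lower. Scaled to spike-in RNAs these 4 gaps of Cys were 3.24-fold and 4.60-fold against het, and 2.65-fold and 4.25-fold against Bud. Cys stood above fetal for both genes, by 1.87-fold for Mt1 (1.750 to 2.005) and 6.31-fold for Mt2 (5.37 to 7.45), where 16.0% of genes were called higher. The pair of Lkb1 -/- libraries thus differed more from each other than Bud did from het.

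Nearly every WT cell held metallothionein mRNA. A UMI of Mt1 was found in 99.7% of WT cells, 94.6% of het, 94.97% of Bud, 85.8% of Cys and 65.5% of fetal cells, and a UMI of Mt2 in 96.4%, 84.3%, 88.4%, 59.6% and 13.7%. Such shares depend on depth, so each cell was also thinned to 1000 UMIs, which left out no kept cell. The share with Mt1 was then 93.0% for WT (89.6–95.6), 74.9% for het (70.1–79.4) and 72.6% for Bud (67.4–77.5), but 33.7% for Cys (28.8–38.9) and 16.4% for fetal (12.8–20.6). For Mt2 it was 79.8% in WT, 54.4% in het, 53.1% in Bud, 14.2% in Cys and 1.62% in fetal. The intervals of het and Bud overlapped for both genes at this depth. No cell type sure to lack these genes was available as a background. In the wells below 1000 UMIs Mt1 made up 4979 CPM in WT (159 UMIs), 2114 in het (37), 1917 in Bud (63), 700 in Cys (9) and 462 in fetal (3), the same order as in the kept cells.

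The shift reached the whole distribution of cells. The median cell held 39.4 Mt1 UMIs per 10000 UMIs in WT, 14.1 in het, 13.6 in Bud, 3.32 in Cys and 0.82 in fetal. The quartiles of WT cells lay at 24.2 and 67.6 per 10000, those of het at 8.10 and 28.4, of Bud at 8.10 and 23.1, of Cys at 1.41 and 5.34, and of fetal at 0 and 2.37. Above the WT median lay 58 het cells (16.5%), 27 Bud cells (8.49%), 2 Cys cells (0.557%) and 0 of 371 fetal cells, which allows a share of up to 0.809%. For Mt2 the numbers above the WT median of 24.2 per 10000 were 67 het, 36 Bud, 3 Cys and 0 fetal cells. Het and Bud cells therefore overlapped each other widely and WT cells in part. For Mt1 the upper quartile of Bud (23.1) lay below the lower quartile of WT (24.2). Hardly any Cys or fetal cell reached the median of WT cells.

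**Figure D2:**
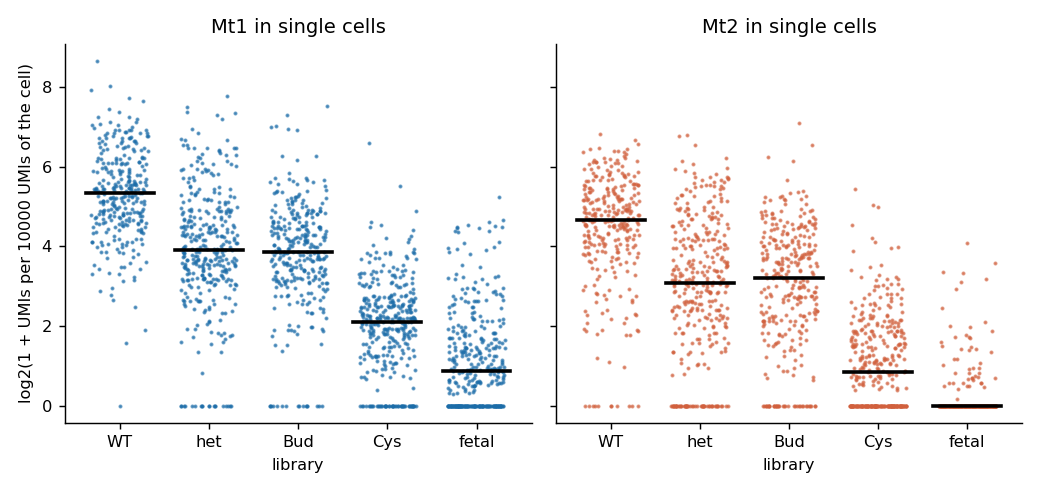
Each dot is a cell, placed by the log2 of 1 plus its UMIs of Mt1 (left) or Mt2 (right) per 10000 UMIs of the cell, and the black bar is the median of the library. The medians of het and Bud lie close together (14.1 and 13.6 per 10000 for Mt1, before the log), and the fetal median of Mt2 is 0.

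Het and Bud had close medians but different totals, and het reached higher at the top. At the 95th percentile a het cell held 86.4 Mt1 UMIs per 10000 and a Bud cell 48.6, against 128 in WT. The 10% of cells with the most Mt1 UMIs held 30.6% of all Mt1 UMIs in WT, 46.8% in het, 36.9% in Bud, 46.7% in Cys and 60.4% in fetal. Metallothionein mRNA was thus spread most evenly in WT and was most uneven in fetal. At an equal depth of 5000 UMIs the coefficient of variation of Mt1 over cells was 0.773 in WT, 1.13 in het, 1.07 in Bud, 1.62 in Cys and 2.21 in fetal, where low counts add to the spread. When every cell weighed the same, the log2 ratio of het to WT for Mt1 was -1.10 in place of -0.78.

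Single cells mattered at the low end. The Cys cell with the most Mt1 and Mt2 UMIs was the well of 452137 UMIs, with 10.8% of all Mt1 and 12.5% of all Mt2 UMIs of that library. Its levels per 10000 UMIs, 5.24 for Mt1 and 2.63 for Mt2, were near the upper quartiles of Cys cells (5.34 and 2.58). Without each library's top cell, Mt1 stood at 433 CPM in Cys and Mt2 at 184 CPM. In fetal, 1 cell of 31112 UMIs held 34 of the 178 Mt2 UMIs (19.1%). Without it, fetal Mt2 was at 24.7 CPM.

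The balance between the genes also differed by library. For each Mt1 UMI, WT had 0.656 Mt2 UMIs (0.641–0.671), het 0.617 (0.599–0.635) and Bud 0.694 (0.671–0.719), while Cys had 0.434 (0.401–0.468) and fetal 0.129 (0.109–0.151). WT, het and Bud lay within a narrow band, Cys below it and fetal far below. Mt2 tags were read 1.81 to 2.28 times per UMI and Mt1 tags 2.27 to 2.95 times, so Mt2 was read less deeply than Mt1 in each library. Fetal and WT were alike in this (2.27 reads per Mt1 UMI in both, 1.83 and 1.81 per Mt2 UMI). Among cells with at least 20 UMIs of the pair, which are few in Cys and fetal, the median share of Mt2 was 38.4% in 247 WT cells, 37.5% in 204 het cells, 41.7% in 175 Bud cells, 37.5% in 27 Cys cells and 7.35% in 18 fetal cells. These Cys cells, picked for high counts, thus lay near the WT value, and the fetal ones far below it.

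Mt1 and Mt2 varied together from cell to cell. With cells thinned to 5000 UMIs, and shallower cells left out, Spearman's rank correlation between the genes was 0.78 in WT (220 cells), 0.80 in het (251), 0.71 in Bud (230), 0.32 in Cys (286) and 0.27 in fetal (354). Unthinned it was 0.82, 0.83, 0.77, 0.47 and 0.28. The cells of a library share a plate and a culture, and counts this low weaken a rank correlation. Thinned Cys cells held 2.13 Mt1 and 0.983 Mt2 UMIs on average, thinned fetal cells 1.29 and 0.172, and thinned WT cells 23.9 of Mt1. Both genes were found in 291 of 302 WT cells and in 43 of 371 fetal cells, where 200 cells had Mt1 alone and 8 Mt2 alone.

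**Figure D3:**
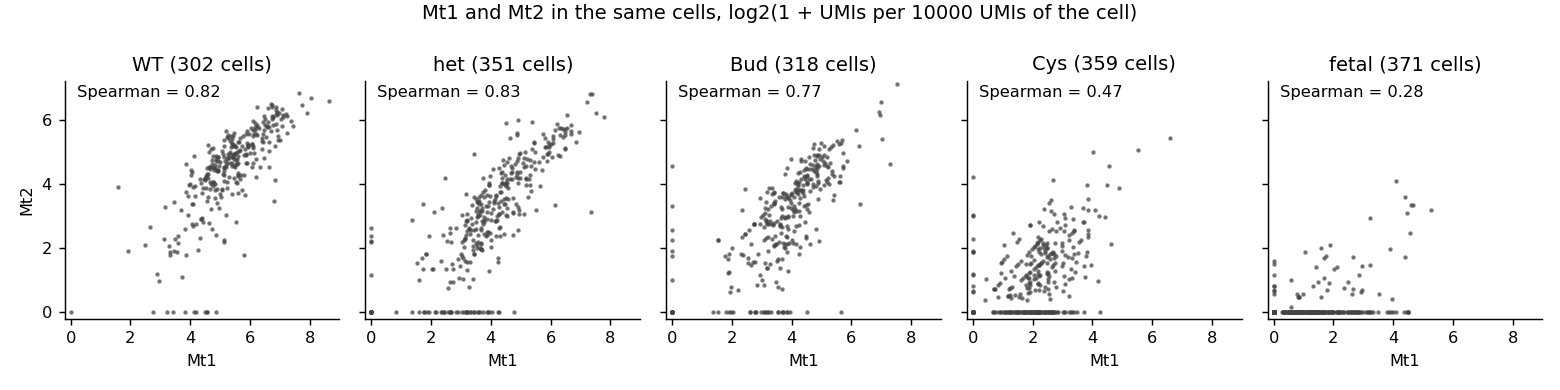
Mt2 against Mt1 in each cell of the 5 libraries, both as log2 of 1 plus UMIs per 10000 UMIs of the cell, with Spearman's rank correlation over unthinned cells. The clouds of WT, het and Bud rise along 1 diagonal (rank correlation 0.77 to 0.83), while most fetal cells lie on the axis at 0 for Mt2.

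Few genes followed the pair in all libraries. Over 5179 genes that reached 20% of the cells in every library, the highest mean rank correlation with the sum of Mt1 and Mt2 belonged to Mgst1 (0.23), a microsomal glutathione transferase. Its rank correlation was 0.49 in het, 0.31 in WT, 0.23 in Bud, 0.13 in fetal and -0.01 in Cys. Next came Oat (0.21), which encodes ornithine aminotransferase, Cbr1 (0.18), a carbonyl reductase, and Fth1 (0.18), the heavy chain of the iron store ferritin. Dak, Dbi, Rps20, Hadh, Gstm1 and Atpif1 completed the 10 highest, with mean rank correlations from 0.15 to 0.16. Dbi binds acyl-CoA, Hadh acts in fatty acid oxidation and Gstm1 is a cytosolic glutathione transferase. The lowest were Ly6e and Krt18 (both -0.18), then Fxyd3, Ceacam1 and Ctsl (-0.13 to -0.12). Krt18 encodes a keratin of simple epithelia. All these are weak relations, and each is weaker than that of Mt1 with Mt2 in the same WT, het or Bud cells.

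The companions differed by library. In het, Mgst1, Fth1 (0.45) and Ccl25 (0.43), a chemokine of small intestinal epithelium, led. In Bud, Prap1 (0.31), an enterocyte gene, and Ndufb7 (0.31), a subunit of respiratory complex I, were among the highest, and in WT Ugdh (0.34), Aadac (0.32) and Dmbt1 (0.32) did. In fetal the 3 highest were Bnip3 (0.42), a mitophagy gene known to rise in hypoxia, Bsg (0.40), a partner of lactate transporters, and Pkm (0.38), a glycolytic pyruvate kinase. Bnip3 had rank correlations of 0.00 to 0.06 in the other 4 libraries in size. In Cys no gene passed 0.21 (Magoh), and 0 of 6316 genes exceeded 0.3, against 49 in het, 16 in fetal, 5 in WT and 3 in Bud.

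Cells were then ranked by the share of their UMIs from a gene list and divided into 3 parts, and the summed level of Mt1 in the highest part was set against that in the lowest. Such parts are ranges of a score and not cell types. In the libraries with a mature enterocyte program, cells richer in enterocyte genes held more Mt1. In WT the highest part had 6038 CPM and the lowest 3464, a ratio of 1.74 (1.68 to 1.81). In het the values were 4466 and 1718, with an interval of the ratio from 2.48 to 2.73, and in Bud 2558 and 1273, a ratio of 2.01 (1.88 to 2.15). Mt2 behaved alike, with ratios of 1.70 in WT, 2.67 in het and 2.32 in Bud. In Cys and fetal, where the list summed to lower levels, the Mt1 ratios were 0.90 (0.80 to 1.02) and 0.70 (0.61 to 0.81). The median depth of the parts was 10297 against 10636 UMIs in WT, 12647 against 8864 in het and 13980 against 5533 in Bud, and the part of depth in het and Bud was not tested. Thinned to 5000 UMIs, the rank correlation of the pair with the enterocyte share was 0.25 in WT, 0.37 in het, 0.42 in Bud, -0.02 in Cys and -0.14 in fetal.

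In WT, het and Bud, cells in the highest part for genes of goblet cells, which secrete mucus, held less Mt1. They had a ratio of Mt1 to the lowest part of 0.83 in WT, 0.51 in het and 0.58 in Bud, with rank correlations of -0.22, -0.23 and -0.25 after thinning. Goblet-rich cells were also shallower, with medians of 7054, 6550 and 3816 UMIs against 11269, 10942 and 14734, and the part of depth was not tested. In Cys the Mt1 ratio was 0.94 (0.84 to 1.05) and the Mt2 ratio 1.44 (1.20 to 1.73), and in fetal they were 1.01 and 1.36. In het, the highest part for stem cell genes had 1936 CPM and the lowest 4590, and the same held for cell cycle genes, with 1802 and 4044. In WT the same lists gave Mt1 ratios of 0.70 and 0.75, and in Bud 0.82 and 0.69. Fetal cells in the highest part for stem cell genes held more Mt1, with a ratio of 2.95 (2.56 to 3.41). A UMI of Mt1 was found in 65.3% of them and in 64.5% of the lowest part. In Cys the stem cell ratio was 0.80 and the cell cycle ratio 1.32 (1.18 to 1.48). Against WT, 2 of 12 stem cell genes were called higher and 9 lower in Cys, and likewise in fetal. Of all genes, 17.6% were called higher and 22.0% lower in Cys, and 29.4% and 22.3% in fetal. A high share of this list need not mark stem cells in either library. The highest part for stem cell genes was deeper than the lowest in WT (13538 against 6204 UMIs), het (11944 against 4923) and Bud (13361 against 5993), and shallower in fetal (12783 against 15819). After thinning, the stem cell share had a rank correlation with the pair of -0.15 in WT, -0.18 in het, 0.06 in Bud, 0.00 in Cys and 0.14 in fetal. The highest part for cell cycle genes was much deeper than the lowest, with medians of 18616 against 5613 UMIs in WT, 15481 against 8741 in het and 17966.5 against 5533 in Bud, and the part of depth was not tested. Among cells thinned to 5000 UMIs the rank correlation of the pair with that list was 0.00 in WT, -0.02 in het and 0.13 in Bud.

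In fetal organoid cells, and less so in het cells, Mt1 went with hypoxia genes. The 15 genes of that list include Vegfa, the glucose carrier Slc2a1 and the enzymes Pgk1 and Ldha. The highest part of fetal cells held 519 CPM of Mt1 and the lowest 94.3, a ratio of 5.50 (4.71 to 6.47), with a median of 13067.5 and 15467.5 UMIs per cell. In WT the ratio was 1.07, in het 1.87, in Bud 1.21 and in Cys 1.03. The rank correlation with the hypoxia share after thinning was 0.43 in fetal for the pair and at most 0.22 in size elsewhere. For Mt2 the ratio was 2.11 (1.95 to 2.28) in het, with a rank correlation of 0.22, and 1.91 (1.30 to 2.82) in fetal, where Mt2 was sparse, with 0.12. Hypoxia-rich het cells were deeper, with a median of 15941 against 4266 UMIs, and the part of depth was not tested. Among single genes of the list in fetal cells, the rank correlation was 0.38 for Pgk1, 0.37 for Ero1l, 0.36 for Ndrg1 and 0.34 for Ldha, genes picked after their values were seen (save Ndrg1). Fetal cells in the highest part for cell cycle genes held 99.4 CPM of Mt1 and those in the lowest 445, a ratio of 0.22 (0.19 to 0.26), at medians of 16662.5 and 13359 UMIs. The rank correlation with that list after thinning was -0.21. For heat shock genes the fetal values were 90.3 and 445 CPM, at medians of 16662.5 and 12393 UMIs. The Mt1 ratio for that list was 0.41 in het, 0.59 in Bud, 0.92 in WT and 1.16 in Cys. In het the medians were 17374 against 3100 UMIs, and the part of depth was not tested. After thinning, the rank correlation of the pair with heat shock genes was -0.22 in fetal, -0.02 in het, 0.02 in Bud, 0.15 in WT and 0.07 in Cys. In the lowest and middle ranges of hypoxia share, set on WT cells, fetal cells had 44.9-fold and 35.0-fold less Mt1 than WT cells. In the highest range the gap was 8.25-fold. Het cells had 2.07-fold and 2.08-fold less Mt1 in the lowest and middle ranges, and 1.20-fold less (1.16 to 1.24) in the highest. For Mt2 these gaps of het were 2.53-fold, 2.33-fold and 1.11-fold (1.06 to 1.17). Over all cells het had 1.72-fold less Mt1 and 1.83-fold less Mt2.

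**Figure D4:**
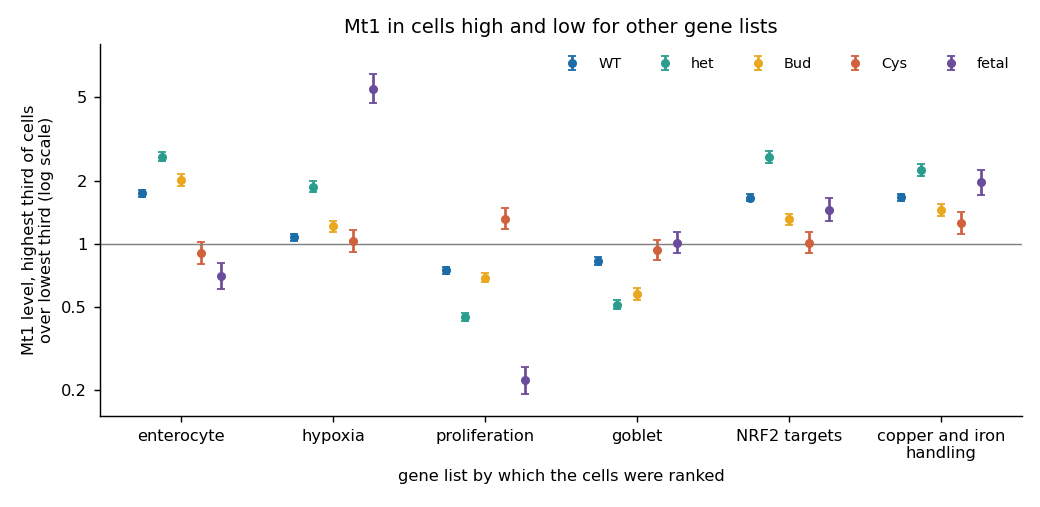
Ratio of the Mt1 level in the highest of 3 parts of cells to that in the lowest, on a log axis, with cells ranked by the share of UMIs from each gene list, and 95% intervals for counting error only. The fetal library stands at 5.50 for hypoxia genes and 0.22 for cell cycle genes, and WT (1.74), Bud (2.01) and het stand above 1 for enterocyte genes.

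Levels were also compared within cells of the same range. Cells of each library were placed in the ranges of enterocyte share that split WT cells into 3 parts. In the lowest range, Mt1 was 2.14-fold lower in het than in WT, 2.61-fold in Bud, 7.86-fold in Cys and 14.7-fold in fetal. That range took in every share up to 12.4 per 10000 UMIs, with 371 fetal and 334 Cys cells. Cells within it were not matched further, so enterocyte share can still differ between the libraries there. In the middle range it was 2.55-fold lower in het and 2.49-fold in Bud, and in the highest 1.58-fold and 2.16-fold. No fetal cell and only 14 and 11 Cys cells reached the middle and highest ranges, so these gave no value. By ranges of total UMIs, Mt1 was 1.499-fold to 3.47-fold lower in het, 2.18-fold to 3.84-fold in Bud, 9.54-fold to 11.7-fold in Cys and 17.4-fold to 27.7-fold in fetal. Each of these values by enterocyte share and total UMIs lay on the lower side.

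The zinc transporters and the metal sensor did not move as 1 group. Of 21 genes (Mtf1, ZnT exporters of the Slc30 family and ZIP importers of the Slc39 family), 1 was called higher and 1 lower in het against WT, 0 and 2 in Bud, 6 and 6 in Cys, and 8 and 7 in fetal. The median log2 ratios were 0.02, -0.10, 0.00 and -0.13, beside medians over all genes of -0.02, -0.04, -0.06 and 0.06. Of all genes, 8.43% were called higher and 8.83% lower in het (17.3% in all), 5.79% and 8.67% in Bud (14.5%), 17.6% and 22.0% in Cys (39.7%), and 29.4% and 22.3% in fetal (51.7%).

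Several ZIP importers were higher in Cys and fetal. Slc39a4, the ZIP4 importer that takes up zinc from the gut lumen, stood at 97.9 CPM in WT, 78.0 in het, 131 in Bud, 604 in Cys and 705 in fetal, a ratio of 7.21 (6.50 to 8.01) of fetal to WT. Slc39a10 stood at 7.19 CPM in WT, 8.65 in het, 10.0 in Bud, 37.9 in Cys and 104 in fetal. Slc39a13 followed with 3.97, 4.10, 4.52, 10.4 and 23.5 CPM. None of these 3 genes was called between WT and het or Bud, and all 3 were called higher in Cys and fetal. Slc39a5, a ZIP importer of the basolateral side, was lower there, with 83.3 CPM in WT, 85.3 in het, 55.7 in Bud and 0 UMIs in Cys and fetal. Slc39a8 was also called lower in both, Slc39a14 in Cys and Slc39a11 in fetal, genes named after their values were seen.

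Among the exporters, Slc30a1 was chosen after its values were seen because it is, like Mt1 and Mt2, a known target of MTF1. It stood at 29.5 CPM in WT, 49.6 in het, 18.1 in Bud, 16.9 in Cys and 11.3 in fetal. It was thus lower than in WT in Bud (1.63-fold, 1.21 to 2.20), Cys (1.75-fold) and fetal (2.62-fold), but higher in het (1.68-fold, 1.34 to 2.12), where Mt1 and Mt2 were lower. Slc30a10, a manganese exporter also chosen afterwards, had 14.9 CPM in WT, 19.3 in het, 21.7 in Bud and at most 0.511 in Cys and fetal, on 3 UMIs or fewer. Mtf1 itself was at 17.3 CPM in WT, 23.9 in het, 16.0 in Bud, 22.9 in Cys and 10.2 in fetal, and only the fetal value was called (1.70-fold lower, 1.18 to 2.44). No zinc list gene with a UMI in at least 20% of cells had a rank correlation with the pair above 0.19 in size in any library, the highest being Slc39a5 in het.

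**Figure D5:**
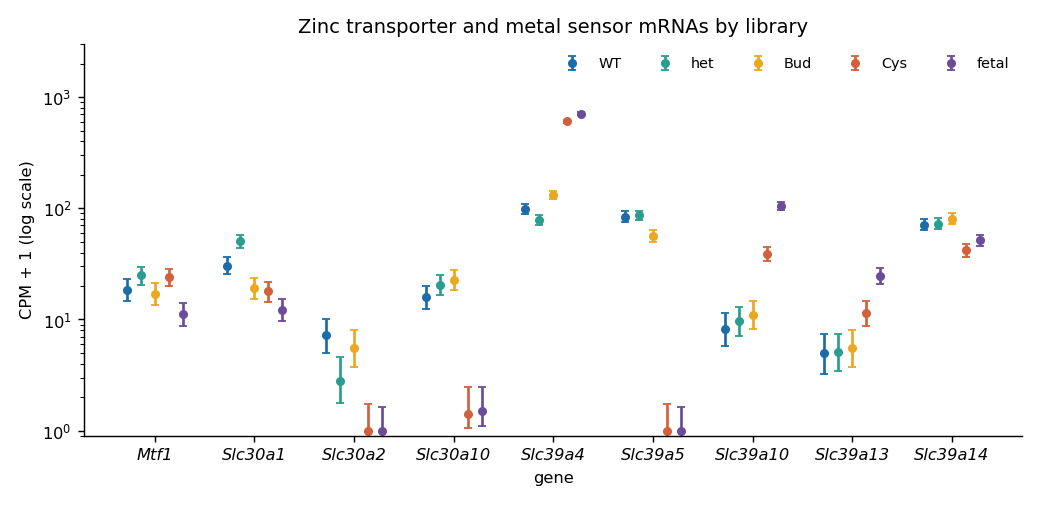
Levels of Mtf1 and 8 zinc or manganese transporter genes in each library, as CPM plus 1 on a log axis, with exact Poisson 95% intervals for counting error only. Slc39a4 and Slc39a10 stand highest in fetal and Cys, and Slc39a5 has no UMI in either.

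Other known partners and inducers of metallothionein differed by list. Of 19 genes for copper and iron handling, 18 measured, 2 were called higher and 1 lower in het against WT, 0 and 0 in Bud, 3 and 3 in Cys, and 4 and 7 in fetal. The list's median log2 ratios were 0.00, -0.17, -0.19 and -0.21 in that order, beside -0.02, -0.04, -0.06 and 0.06 over all genes. Of all genes, 8.43% were called higher and 8.83% lower in het, and 5.79% and 8.67% in Bud. In Cys these shares were 17.6% and 22.0%, and in fetal 29.4% and 22.3%. Heph, the intestinal ferroxidase hephaestin, was at 37.7 CPM in WT, 58.5 in het, 54.3 in Bud, 17.3 in Cys and 0.170 in fetal (1 UMI). Slc40a1, the iron exporter ferroportin, was at 67.5 CPM in fetal, 38.2 in het and 4.52 to 6.94 in the other 3. Hmox1, which degrades heme, was at 44.3 CPM in fetal and 32.5 in Cys, against 1.67 to 3.64 in the other 3.

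Of 19 targets of the oxidant sensor NRF2, 10 were called higher and 3 lower in Cys against WT, 6 and 7 in fetal, 2 and 1 in het and 0 and 3 in Bud. The median log2 ratio was 0.50 in Cys, 0.19 in fetal, 0.09 in het and -0.18 in Bud, beside -0.06, 0.06, -0.02 and -0.04 over all genes. Of all genes, 17.6% were called higher and 22.0% lower in Cys, and 29.4% and 22.3% in fetal. In het these shares were 8.43% and 8.83%, and in Bud 5.79% and 8.67%. Gsta4, which detoxifies lipid peroxides, was at 1702 CPM in Cys and 199 in WT. Nqo1 was at 30.5 CPM in WT, 30.1 in Cys and 0.341 in fetal, and Gstm1 at 913 in WT and 231 in fetal. Over cells, the NRF2 share went with Mt1 most in het (ratio 2.59) and WT (1.66). The ratio was 1.45 (1.28 to 1.65) in fetal, 1.31 (1.23 to 1.39) in Bud and 1.01 in Cys. After thinning, the rank correlation with the pair was 0.35 in het, 0.33 in WT, 0.14 in Bud, 0.03 in fetal and -0.02 in Cys. NRF2-rich cells were deeper in het (17403 against 3828 UMIs), WT (14417 against 7804), Bud (15612 against 5165) and fetal (14865.5 against 13732). The part of depth was not tested. Fth1 and Gstm1 are members of this list and of the genes most like the pair.

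Of 10 measured glucocorticoid targets, 4 were called higher and 3 lower in Cys against WT, 5 and 1 in fetal, 4 and 1 in Bud, and 1 and 1 in het. The median log2 ratio was 0.27 in Cys, 0.34 in fetal, 0.21 in Bud and -0.11 in het. Sgk1, a kinase, was at 54.2 CPM in fetal and 1.98 in WT, and Dusp1, a phosphatase of stress signals, at 64.8 and 3.72. Of STAT3 and acute phase genes, 8 of 10 were called higher and 0 lower in fetal, with a median log2 ratio of 0.98. Of the 8 measured in each other comparison, 6 were called higher and 1 lower in Cys, 4 and 1 in Bud, and 3 and 1 in het. Among the genes called higher in fetal was Lcn2, which binds bacterial iron carriers, at 173 CPM in fetal against 0.248 in WT (1 UMI). Of all genes, 29.4% were called higher and 22.3% lower in fetal, and 17.6% and 22.0% in Cys. In Bud these shares were 5.79% and 8.67%, and in het 8.43% and 8.83%. Medians over all genes were -0.06 in Cys, 0.06 in fetal, -0.04 in Bud and -0.02 in het.

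Stress lists also differed between the libraries. Genes induced by dissociation of tissue were called higher in 8 of 12 and lower in 0 in het, 6 of 11 and 0 in Bud, 7 of 12 and 2 in Cys, and 8 of 12 and 1 in fetal. Their median log2 ratios were 0.55, 0.40, 0.36 and 0.85 in that order. Dusp1 is in this list and in the glucocorticoid list. Of 12 targets of the tumour suppressor p53, 1 was called higher in het, 4 in Bud, 12 in Cys and 11 in fetal, and 0 lower in each, with medians of 0.09, 0.20, 1.75 and 1.75. Hypoxia genes were called higher in 8 of 15 and lower in 2 in fetal, and in 4 and 4 in Cys, with medians of 0.56 and -0.14. The list summed to 7343 CPM in fetal, 5520 in Cys and 7562 in WT. Among the genes called lower, Car9 was at 446 CPM in WT and 5.29 in fetal, and Ndrg1 at 558 in WT and 35.7 in Cys. Of all genes, 8.43% were called higher and 8.83% lower in het, and 5.79% and 8.67% in Bud. In Cys these shares were 17.6% and 22.0%, and in fetal 29.4% and 22.3%. Medians over all genes were -0.02 in het, -0.04 in Bud, -0.06 in Cys and 0.06 in fetal. The part of these lists in the levels of Mt1 and Mt2 was not tested.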

How the data were processed

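Single cells were profiled by a plate method with CEL-Seq2 chemistry. The submitters' processing notes name GRCm38 as the build, and Seurat 4.1.0, featureCounts 1.5.2 and STAR 2.6.1 as tools. The handling of strand and of reads with several matches was not given in the sources used. For every library the authors supplied 3 tables with genes against wells. The UMI table, raw counts as deposited, gave every main value. The read table, also deposited counts, gave reads per UMI. The third deposited table has estimated counts that equal the UMI counts corrected for repeated identifiers (largest deviation 3.64e-12 over the 5 libraries) and served as an alternative, where values were rounded for thinning.

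Wells with at least 1000 UMIs without spike-in RNAs were kept. No doublet caller was run on sorted wells. UMIs were summed per library and scaled to CPM, with exact Poisson intervals for levels, exact conditional binomial intervals for ratios and Clopper-Pearson intervals for shares. A share or level of 0 has a limit of 3 counts. Median log2 ratios of lists, the place of Mt2 among all genes and the choice of pathway genes had 10 CPM added to both levels. The addition understates low genes. With 1 library per group there was no test, and labels do not say that cultures were repeated. Python 3.11.15 with numpy 2.4.6, pandas 2.3.3 and scipy 1.17.1 was used. The ratio calls were tried on simulated counts with counting error only, which hold no spread between cells or cultures. Alternatives changed the well minimum, the count table, the scaling, the weight of cells, the thinning, or left out the top cell, very large wells, Kcnq1ot1-rich wells or Rn45s. Named genes were Mt1 to Mt4, up to 4 per pathway list with the largest log2 ratio against WT and at least 20 CPM in either library, the 10 highest and 5 lowest mean correlations and the 3 highest per library, 1 of which is not reported here. Members and lists were chosen with earlier results of these data known.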

Additional observations from a re-analysis of the deposited data

How the results depend on the processing

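Alternatives were run for the log2 ratios of Mt1 and Mt2, the Mt2 to Mt1 ratio, the correlations and the shares of cells, and no log2 ratio changed sign. None was run for the cell parts by gene list, the matched ranges or the calls of list genes. No paired analysis was possible because each group was 1 library and no result came from a test. A value counted as moved where it left the 95% counting interval of the main value, or changed by over 0.1 for a correlation. Of 160 log2 ratios 128 did not move, nor did any of the 25 values of the Mt2 to Mt1 ratio, 32 of 35 correlations and all 15 mean correlations of named genes.

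With at least 3000 UMIs per cell, Mt1 in het against WT was -0.74. Where each cell had the same weight, the log2 ratios were -1.10 (Mt1) and -1.08 (Mt2) in het against WT, -1.45 and -1.31 in Bud against WT, -3.51 and -3.81 in Cys against WT, -0.35 and -0.23 in Bud against het, -2.41 and -2.73 in Cys against het, -4.41 for Mt1 in fetal against WT and -2.50 for Mt2 in Cys against Bud. With median-of-ratios size factors they were -0.73 (Mt1) and -0.82 (Mt2) in het against WT, and for Mt1 -1.24 in Bud against WT, -3.28 in Cys against WT and 1.01 in Cys against fetal. Scaled to spike-in RNAs, they were -0.96 (Mt1) and -1.05 (Mt2) in het against WT, -2.66 and -3.25 in Cys against WT, -3.52 and -5.87 in fetal against WT, -0.29 and -0.12 in Bud against het, -1.69 and -2.20 in Cys against het, and -1.41 and -2.09 in Cys against Bud. Without the cell with most UMIs of the gene, Mt2 was -6.91 in fetal against WT and 2.90 in Cys against fetal. Apart from what each setting's construction shows, the cause was not tested.

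The correlation of Mt1 and Mt2 was 0.62 in het and 0.60 in Bud when cells were thinned to 2000 UMIs, and 0.47 in Cys unthinned. Shares of cells with a UMI moved with depth at every setting, and het stood above Bud at 1000 UMIs but below it unthinned for both genes. In unthinned cells Mt1 was found in 65.5% (fetal), 99.7% (WT), 94.6% (het), 94.97% (Bud) and 85.8% (Cys), and Mt2 in 13.7%, 96.4%, 84.3%, 88.4% and 59.6%. At 5000 UMIs the shares were 40.7%, 100%, 98.4%, 97.8% and 75.5% for Mt1, and 8.47%, 97.3%, 90.4%, 91.3% and 42.0% for Mt2. Fetal Mt2 rests on 178 UMIs.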
